A study of Homo sapiens with 18 samples.

Results

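A set of 7 genes, EMC10, LUM, MYD88, ENPP4, TENM2, PRAME and CORO1A, was followed through 18 mRNA libraries of the thyroid carcinoma line TPC1 and its clone D11. They are 7 of the 58302 genes of the deposited table, and they were selected on their control values, which differed strongly between D11 and TPC1. That control difference is therefore given below as a description with no test. It was asked whether the difference was also present in libraries treated with Dicer1 siRNA. The rule of choice did not use these libraries, although earlier results of these data were known. It was also asked whether knockdown of Dicer1 in TPC1 moved the same genes to their D11 level.

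TPC1 is a human papillary thyroid carcinoma line. D11 is a single clone of TPC1 made with CRISPR-Cas9 that kept one wild-type Dicer1 allele, Dicer1 (+/-). Cells of each line were left without transfection (NT) or received 5 nM of a negative control siRNA (NC) or of a Dicer1 siRNA (siDicer), and RNA was taken on day 4. The 6 groups held 3 libraries each, and NT and NC together formed the 6 control libraries of a line. D11 was the only edited clone analysed here, so effects of the lost Dicer1 allele and other differences between this clone and its parent cannot be told apart.

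Dicer1 cuts precursor hairpins into mature microRNAs, which lower the stability and translation of target mRNAs. A line grown from a single sorted cell starts from the genotype and expression state of that cell, so a clone and its parental population can differ in genes unrelated to the edited locus. The genes described here have unrelated roles. EMC10 is a subunit of the endoplasmic reticulum membrane complex that inserts membrane proteins, LUM (lumican) is a proteoglycan that binds collagen fibrils, and MYD88 is the adaptor between Toll-like or interleukin receptors and IRAK kinases. ENPP4 is a membrane-bound nucleotide hydrolase. TENM2 is a teneurin, a cell adhesion protein that binds latrophilins, PRAME is a cancer-testis antigen that can repress retinoic acid receptors, and CORO1A is a coronin that binds actin and is best known from leukocytes.

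Expression is the normalised read count, the reads of a gene scaled to 20 M reads per library and rounded up. Depth was 11.3 to 23.2 M reads, 1 read was worth 0.861 to 1.77 units, and the floor of 3 reads lay between 2.58 and 5.32 units. Titles and descriptions of 12 samples name different groups, and the descriptions were used. DICER1 followed the descriptions: its mean was 1875 ± 463 (SD, n = 6) in TPC1 control and 299 ± 83.6 (n = 3) in TPC1 siDicer libraries, 1185 ± 342 (n = 6) in D11 control and 342 ± 95.2 (n = 3) in D11 siDicer libraries. Of the thyroid markers, PAX8 read 7361 to 14886 over all libraries, whereas NKX2-1 was at 0 in every library. The methods of the study speak in general of independent repeats, but the labels do not tie the libraries to separate cultures, so p-values measure the spread between these libraries, which may be in part technical.

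The starts of 3 of the genes are printed because EMC10 and MYD88 were almost lost in D11, and because PRAME, for contrast, was higher there. Each run is RefSeq sequence on GRCh38.p14, 250 bases before to 50 after a transcript start, read 5′ to 3′ on the strand of the gene, with CpG dinucleotides in capitals. The windows are chr19:50476257-50476556 on the plus strand for EMC10, chr3:38138411-38138710 on the plus strand for MYD88 and chr22:22559216-22559515 on the minus strand for PRAME. DNA methylation was not measured in these libraries.
EMC10: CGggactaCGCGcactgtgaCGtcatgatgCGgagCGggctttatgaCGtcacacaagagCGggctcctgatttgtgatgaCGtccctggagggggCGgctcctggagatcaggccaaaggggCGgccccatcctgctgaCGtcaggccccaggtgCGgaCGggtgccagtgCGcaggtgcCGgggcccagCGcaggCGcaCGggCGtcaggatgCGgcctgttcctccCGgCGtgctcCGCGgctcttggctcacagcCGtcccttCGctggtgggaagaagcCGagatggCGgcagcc
MYD88: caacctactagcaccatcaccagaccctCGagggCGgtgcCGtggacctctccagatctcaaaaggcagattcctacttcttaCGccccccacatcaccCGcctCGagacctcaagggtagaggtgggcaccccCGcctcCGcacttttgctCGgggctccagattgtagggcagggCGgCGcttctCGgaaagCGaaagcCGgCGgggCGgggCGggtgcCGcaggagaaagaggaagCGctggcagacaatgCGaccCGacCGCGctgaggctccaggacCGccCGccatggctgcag
PRAME: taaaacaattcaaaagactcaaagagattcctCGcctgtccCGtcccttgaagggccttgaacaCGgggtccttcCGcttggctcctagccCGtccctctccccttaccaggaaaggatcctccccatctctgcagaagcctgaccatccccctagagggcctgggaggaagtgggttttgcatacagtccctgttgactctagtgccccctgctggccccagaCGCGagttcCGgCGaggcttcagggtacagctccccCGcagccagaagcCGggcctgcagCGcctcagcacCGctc

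The EMC10 window held 29 CpG, the MYD88 window 25 and the PRAME window 13, against a median of 14 over all promoters of the RefSeq table. The promoter of CORO1A held 26 CpG, and those of TENM2, with 2 listed starts, held 3 and 4. PRAME has 3 listed starts, of which the most upstream is printed, and its other windows held 12 and 4 CpG. The hexamer TGACGT, searched on both strands so that its palindrome counts as 2 overlapping matches, occurred 7 times in the EMC10 window and in 7.98% of all promoters. The GC box GGGCGG was searched on both strands, with matches that overlap on the same strand counted once. It occurred 2 times in EMC10, 4 times in MYD88 and 3 times in CORO1A. It also occurred 2 times in the second PRAME window, which is not printed, and is present in 44.95% of all promoters. TATAAA, on both strands, was found in 1 of the TENM2 windows (2 matches) and in 11.5% of all promoters. The table matched 5 of the 7 genes.

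EMC10 (ENSG00000161671, chr19:50476400-50490871, plus strand) was close to absent in D11 in all conditions. In TPC1 its values in replicates 1, 2 and 3 were 223, 305 and 283 (NT), 254, 318 and 375 (NC) and 311, 290 and 396 (siDicer). In D11 they were 8, 0 and 0 (NT), 18, 2 and 3 (NC) and 11, 0 and 0 (siDicer). In bulk libraries such as these, fewer expressing cells and less RNA per cell cannot be told apart. No D11 library came within the TPC1 range, and the 3 highest D11 values were those of replicate 1. The control mean was 5.17 ± 6.94 (SD, n = 6) in D11 and 293 ± 52.9 (n = 6) in TPC1. D11 control libraries held 22 reads of EMC10 and TPC1 control libraries 1390, so that D11 stood at 1.73% of TPC1 with an exact 95% interval of 1.08% to 2.63% that covers counting error only.

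LUM (ENSG00000139329, chr12:91102629-91111494, minus strand) was near the limit of detection in D11 control libraries and rose with siDicer in TPC1. In TPC1 it read 94, 111 and 89 (NT), 157, 101 and 132 (NC) and 483, 273 and 517 (siDicer). In D11 it read 2, 2 and 0 (NT), 2, 0 and 0 (NC) and 26, 2 and 14 (siDicer). All 6 D11 control libraries were at or under the floor of 3 reads, while 2 of the 3 D11 siDicer libraries were above it. The 6 D11 control libraries held 3 reads of LUM in all against 530 in TPC1, a ratio of 0.619% with an exact 95% interval of 0.127% to 1.82%. The control mean in TPC1 was 114 ± 26.0 (SD, n = 6) and the siDicer mean 424 ± 132 (n = 3).

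MYD88 (ENSG00000172936, chr3:38138552-38143024, plus strand) was the steadiest of the 7 in TPC1 and low but above 0 in every D11 library. TPC1 values were 183, 175 and 192 (NT), 210, 202 and 209 (NC) and 209, 220 and 232 (siDicer). D11 values were 16, 8 and 2 (NT), 14, 11 and 14 (NC) and 30, 14 and 9 (siDicer). The highest D11 library, at 30, was far under the lowest TPC1 library, at 175. The control means were 10.8 ± 5.15 (SD, n = 6) in D11 and 195 ± 14.3 (n = 6) in TPC1, so D11 stood at 5.55% of its parent.

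ENPP4 (ENSG00000001561, chr6:46129989-46146688, plus strand) was lower in D11 by a smaller factor. TPC1 values were 95, 82 and 72 (NT), 141, 87 and 101 (NC) and 68, 51 and 49 (siDicer). D11 values were 43, 22 and 9 (NT), 37, 21 and 17 (NC) and 22, 15 and 6 (siDicer). The control means were 24.8 ± 12.8 (SD, n = 6) in D11 and 96.3 ± 24.1 (n = 6) in TPC1, and in each of the 3 D11 groups replicate 1 was the highest.

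TENM2 (ENSG00000145934, chr5:166979029-168264157, plus strand) had the largest excess in D11 of the 7. TPC1 values were 9, 7 and 2 (NT), 13, 9 and 25 (NC) and 7, 4 and 3 (siDicer). D11 values were 81, 112 and 85 (NT), 115, 262 and 194 (NC) and 57, 140 and 93 (siDicer). Its control means were 142 ± 71.7 (SD, n = 6) in D11 and 10.8 ± 7.81 (n = 6) in TPC1. The spread within each line was wide, yet the lowest D11 library, at 57, exceeded the highest TPC1 library, at 25.

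PRAME (ENSG00000185686, chr22:22547701-22559361, minus strand) was clearly present in TPC1 and several times higher in D11. TPC1 values were 53, 102 and 55 (NT), 52, 89 and 74 (NC) and 56, 88 and 62 (siDicer). D11 values were 234, 277 and 311 (NT), 209, 263 and 259 (NC) and 202, 212 and 254 (siDicer). The control means were 259 ± 35.1 (SD, n = 6) in D11 and 70.8 ± 21.1 (n = 6) in TPC1, and replicate 1 was the lowest of each D11 group.

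CORO1A (ENSG00000102879, chr16:30182827-30189076, plus strand) had the smallest difference between lines. TPC1 values were 67, 40 and 60 (NT), 25, 63 and 48 (NC) and 27, 61 and 35 (siDicer). D11 values were 127, 116 and 141 (NT), 72, 99 and 82 (NC) and 72, 81 and 72 (siDicer). The highest TPC1 value, 67, was close to the lowest D11 value, 72. The control means were 106 ± 26.6 (SD, n = 6) in D11 and 50.5 ± 16.0 (n = 6) in TPC1.

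**Figure D1:**
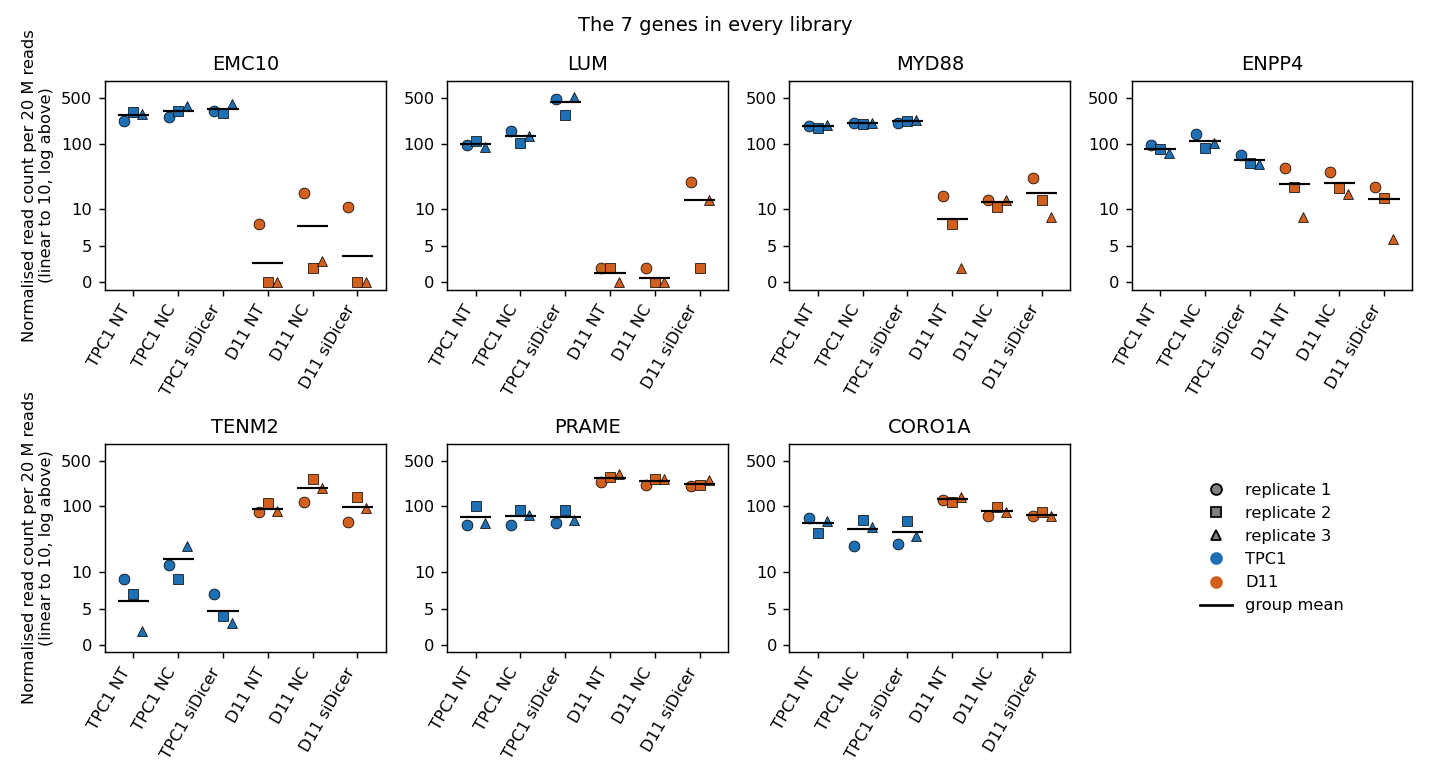
Normalised read count per 20 M reads (linear to 10, log above) of the 7 genes in each of 18 libraries, with the replicate number as the marker, the line as the colour and a bar at the mean of 3 libraries. EMC10, LUM, MYD88 and ENPP4 lie lower in D11 and TENM2, PRAME and CORO1A higher, with no overlap between lines in control or in siDicer libraries.

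In control libraries the fitted log2 differences, D11 minus TPC1 on the log2(value + 1) scale, were -6.35 for EMC10, -6.02 for LUM, -4.24 for MYD88, -2.04 for ENPP4, 3.73 for TENM2, 1.89 for PRAME and 1.09 for CORO1A. By size these were the 1st, 2nd, 12th, 66th, 20th, 74th and 237th of 18814 genes. All 7 genes separated the control libraries of the lines without overlap, as the choice fixed, and 1.26% of all genes did so. A call required a limma adjusted p under 0.05 together with a 1.5-fold or larger change, and 1.02% of all genes were called in this comparison. Per kb of annotated exon, the mean control level in TPC1 ran from MYD88 (46.6) through LUM (42.7), EMC10 (27.3), ENPP4 (20.7), PRAME (18.6) and CORO1A (10.6) to TENM2 (0.509), and only CORO1A and TENM2 were neighbours in this order whose libraries did not overlap. In D11 the order per kb was PRAME (68.0), CORO1A (22.2), TENM2 (6.64), ENPP4 (5.35), MYD88 (2.59), EMC10 (0.481) and LUM (0.374). There PRAME stood apart from CORO1A and CORO1A from TENM2, while each later neighbour overlapped the next.

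Within D11, replicate 1 was the highest library of all 3 groups for EMC10 and ENPP4 and of 2 of 3 groups for LUM and MYD88, and the lowest of all 3 groups for TENM2 and PRAME, but of 1 of 3 for CORO1A. Relative to the mean of the 9 TPC1 libraries, EMC10 was at 4.03% in the 3 D11 libraries of replicate 1 and at 0.272% in the 6 of replicates 2 and 3. The same pair of values was 4.60% and 1.38% for LUM, 9.83% and 4.75% for MYD88, and 41.0% and 18.1% for ENPP4. The LUM gap rests on the siDicer value of 26, since its control values in replicate 1, 2 and 2, were at or under the floor. TENM2 and PRAME were nearer to TPC1 in replicate 1 as well, at 961% against 1682% and at 307% against 375%, and CORO1A stood at 191% against 208%. After these values were seen, genes at 50 or more in every TPC1 library and at 6 or less in the 6 D11 libraries of replicates 2 and 3 were listed, which gave DSC2, MCTP2, EPHA5, EMC10 and AC020909.3. In these 5 genes, replicate 1 of each D11 group was at least as high as the highest library of replicates 2 and 3, for example 7, 15 and 8 for the desmosomal cadherin DSC2 and 7, 11 and 20 for the ephrin receptor EPHA5. The list was drawn from low values in replicates 2 and 3, which by itself favours higher values in replicate 1, and a cause was not tested. Without the D11 NT and NC libraries of replicate 1 the control differences were -7.28 for EMC10, -6.42 for LUM, -4.55 for MYD88, -2.45 for ENPP4, 3.93 for TENM2, 2.00 for PRAME and 1.14 for CORO1A.

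**Figure D2:**
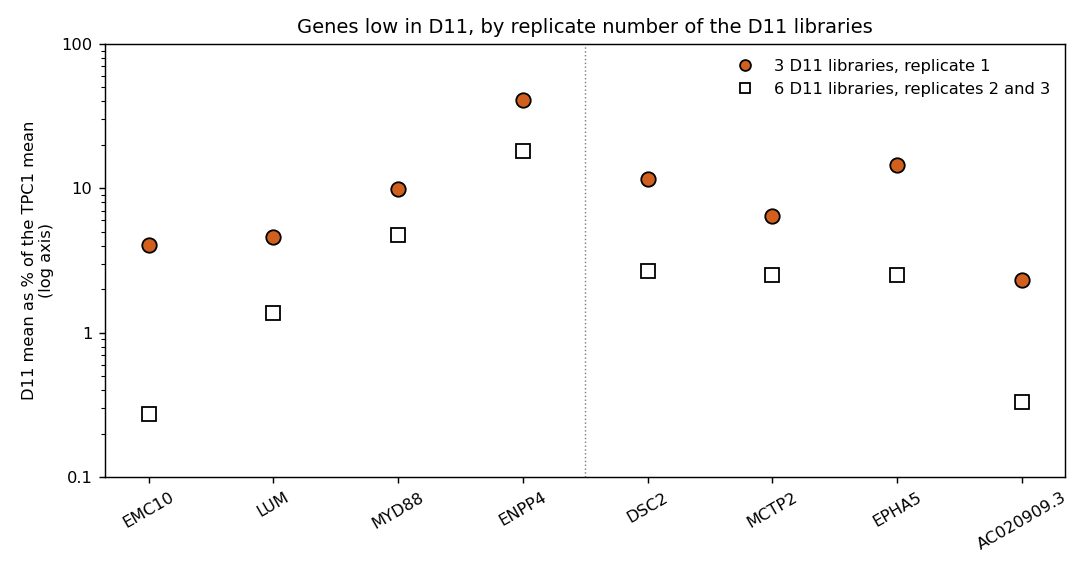
Mean of the D11 libraries as a percent of the mean of 9 TPC1 libraries (log axis), for the 4 genes of the set that were low in D11 and, right of the dotted line, for the other 4 genes at 50 or more in all TPC1 libraries and 6 or less in D11 replicates 2 and 3. Filled circles are the 3 D11 libraries of replicate 1 and open squares the 6 of replicates 2 and 3, and each circle lies above its square.

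The siDicer libraries gave the difference between lines in samples that the rule of choice had not used. The genes and tests were still chosen with earlier results of these data known. Control and siDicer libraries of the same replicate number also correlated, by the check described with the processing. The siDicer libraries are therefore not independent of the controls that chose the genes. EMC10, LUM and MYD88 were lower in D11 and TENM2 and PRAME higher, so 5 of 7 genes passed the test, where 0.287% of 17791 tested genes did. All 7 kept the lines apart without overlap, against 9.12% of all tested genes. By limma, with Benjamini-Hochberg adjustment over all tested genes, the log2 difference was -7.17 (SE 0.87, adjusted p = 0.0241) for EMC10, and -5.26 (SE 0.71, adjusted p = 0.0384) for LUM. It was -3.73 (SE 0.37, adjusted p = 0.00906) for MYD88. TENM2 differed by 4.08 (SE 0.40, adjusted p = 0.00883) and PRAME by 1.70 (SE 0.20, adjusted p = 0.0205). The count of 5 includes TENM2, which passed the filter on low values only through its D11 libraries. TENM2 read 57, 140 and 93 there, against 7, 4 and 3 in TPC1. EMC10 read 11, 0 and 0 in D11, so it passed that filter mainly through TPC1. In siDicer libraries EMC10 had a mean of 3.67 ± 6.35 in D11 and 332 ± 56.1 in TPC1, and PRAME 223 ± 27.6 and 68.7 ± 17.0 (SD, n = 3 each).

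ENPP4 and CORO1A did not pass. The ENPP4 difference was -2.04 (SE 0.43, limma adjusted p = 0.200), with means of 14.3 ± 8.02 in D11 and 56.0 ± 10.4 in TPC1 (SD, n = 3 each), and the CORO1A difference was 0.94 (95% interval 0.26 to 1.61, limma adjusted p = 0.778), with means of 75.0 ± 5.20 and 41.0 ± 17.8. With replicate number as a block, which pairs these libraries by the check described with the processing, ENPP4 passed as well (-2.04, SE 0.31, limma adjusted p = 0.0239), 6 of 7 genes passed, and the calls over all genes rose from 51 to 123. CORO1A still did not pass with the block (limma adjusted p = 0.205).

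These calls rested on few libraries. Without TPC1 siDicer replicate 3 none of the 7 genes passed and 2 genes of the whole table did by limma, and without TPC1 siDicer replicate 1 TENM2 alone passed. Without D11 siDicer replicate 1 the calls of EMC10, LUM and MYD88 held, without replicate 2 that of LUM, and without replicate 3 that of MYD88. When a D11 library was left out TENM2 fell below the filter on low values and was not tested, and when a TPC1 library was left out the sign of every difference stayed the same, as it did for the 6 genes tested without a D11 library. With a pseudocount of 0.1 EMC10 and LUM lost their calls, and in voom on recovered reads LUM did (limma adjusted p = 0.0532).

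**Figure D3:**
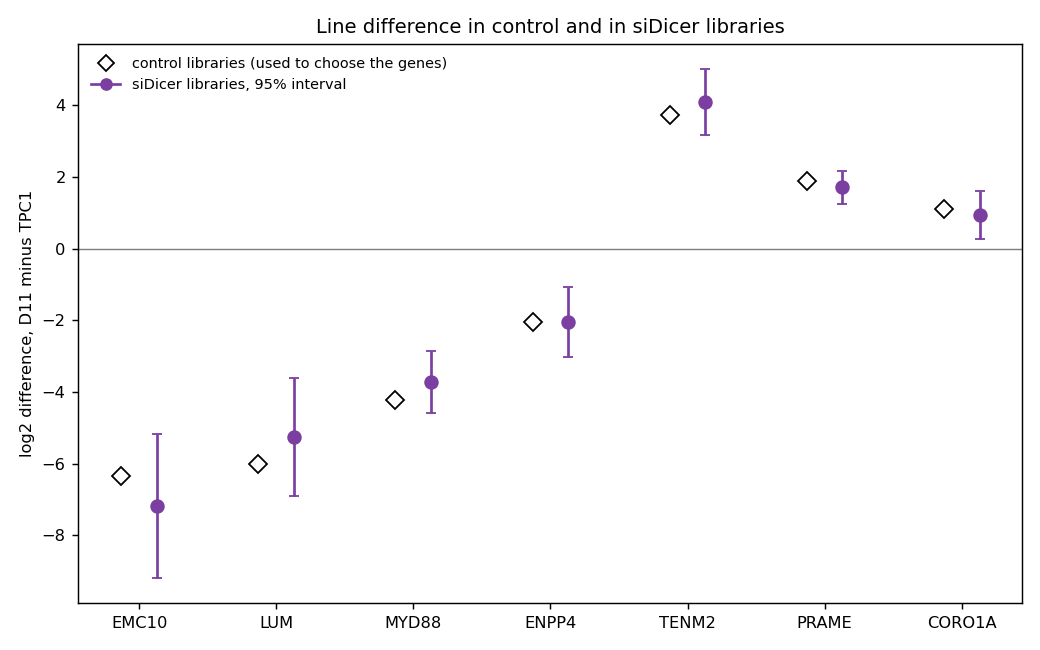
The log2 difference, D11 minus TPC1, of the 7 genes in the 12 control libraries (open diamonds, the comparison that chose the genes, shown without error) and in the 6 siDicer libraries (circles with 95% intervals from limma). The siDicer intervals leave out 0 for all 7 genes before adjustment, and from EMC10 at -7.17 to TENM2 at 4.08 each has the sign of its control difference.

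The difference between lines was then compared between siDicer and control libraries by the interaction in all 18 libraries. None of the 19181 tested genes passed by limma (0.00%), although 133 had an unadjusted p under 0.05. The interval of the change was narrowest for PRAME, -0.19 on the log2 scale with a 95% interval of -0.81 to 0.42, and for CORO1A, -0.15 with -1.01 to 0.70. It was widest for EMC10, -0.83 with -3.17 to 1.52, which rests on libraries with few or no reads. For LUM it was 0.76 (-0.82 to 2.35), for MYD88 0.51 (-0.69 to 1.71), for ENPP4 0.00 (-1.15 to 1.15) and for TENM2 0.35 (-1.13 to 1.83). The control libraries that chose the genes also enter this comparison, and each of the 7 intervals still holds a change of 1.5-fold.

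Knockdown in TPC1 took DICER1 to 25.2% of its mean in D11 control libraries and did not bring the 7 genes to their D11 level. That DICER1 mean joins 912 in D11 NT and 1459 in D11 NC libraries. The siRNA was transient and RNA was taken on day 4, whereas D11 is a stable line, so these losses of Dicer1 differ in duration. For all 7 genes the TPC1 siDicer libraries did not overlap the D11 control libraries and stayed on the TPC1 side of them, where 23% of 18498 genes at 10 or more in 3 of these 9 libraries did not overlap. The D11 control values in this count are those that chose the genes. The TPC1 control libraries, the baseline of the changes below, also entered the choice, which by itself favours a shift towards D11 with siDicer. LUM rose from 114 to 424 with siDicer in TPC1, by 1.86 on the log2 scale (SE 0.23, limma adjusted p = 0.00126), which leads away from the low D11 level. ENPP4 fell by 0.75 on the log2 scale (SE 0.21, limma adjusted p = 0.0373), towards D11, from 96.3 to 56.0 while the D11 control mean was 24.8. Both separated siDicer from control libraries without overlap, so 2 of the 6 tested genes were called and the same 2 did not overlap, where 7.38% of all tested genes were called and 17.5% did not overlap. The ENPP4 call was lost against NT alone (-0.57, limma adjusted p = 0.135), with no filter on low values (limma adjusted p = 0.0605), in a fit of all 18 libraries (limma adjusted p = 0.203), and without any 1 of TPC1 NT replicate 1, NC replicates 2 and 3 or siDicer replicates 1, 2 and 3. LUM kept its call under each of these.

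The other genes did not pass in TPC1. The log2 change with siDicer was 0.19 (95% interval -0.18 to 0.55) for EMC10, 0.18 (-0.06 to 0.41) for MYD88, -0.02 (-0.58 to 0.54) for PRAME and -0.30 (-1.04 to 0.43) for CORO1A. Each of these intervals leaves out the D11 minus TPC1 control difference of its gene, which was -6.35, -4.24, 1.89 and 1.09. Those differences chose the genes, share the TPC1 control libraries with these changes and are set here without their own error. The comparison is therefore a description and not a test. TENM2 was below the filter in TPC1, and its 3 siDicer values of 7, 4 and 3 lay within the range of the NT libraries, 2 to 9, and under all 3 NC libraries, 9 to 25. Without that filter TENM2 changed by -0.85 on the log2 scale (95% interval -2.08 to 0.38, limma adjusted p = 0.508).

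In D11 none of the 5 genes above the filter passed with siDicer, against 12% of all tested genes, and none of these 5 separated siDicer from control libraries without overlap, against 25.1%. At an unadjusted p under 0.05, limma gave 1 of the 5 (35.5% of all tested genes), CORO1A, with a change of -0.46 (95% interval -0.91 to 0.00, adjusted p = 0.137). Against NT alone CORO1A fell by 0.76 (limma adjusted p = 0.0108), and NC already stood 0.60 below NT. The change was 0.69 (-0.48 to 1.86) for MYD88, -0.75 (-1.78 to 0.27) for ENPP4, -0.50 (-1.29 to 0.29) for TENM2 and -0.21 (-0.52 to 0.09) for PRAME. These values depended on the control: TENM2 changed by -0.02 against NT alone and by -0.98 against NC alone (limma adjusted p = 0.0855), and MYD88 by 1.11 and 0.26. The D11 control libraries also entered the choice of genes, which by itself favours a shift towards TPC1 with siDicer. EMC10 and LUM were below the filter. Without that filter LUM passed in D11, with a difference of 2.62 on the log2 scale (SE 0.69, limma adjusted p = 0.0258), which rests on the values of 26 and 14 in siDicer replicates 1 and 3.

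**Figure D4:**
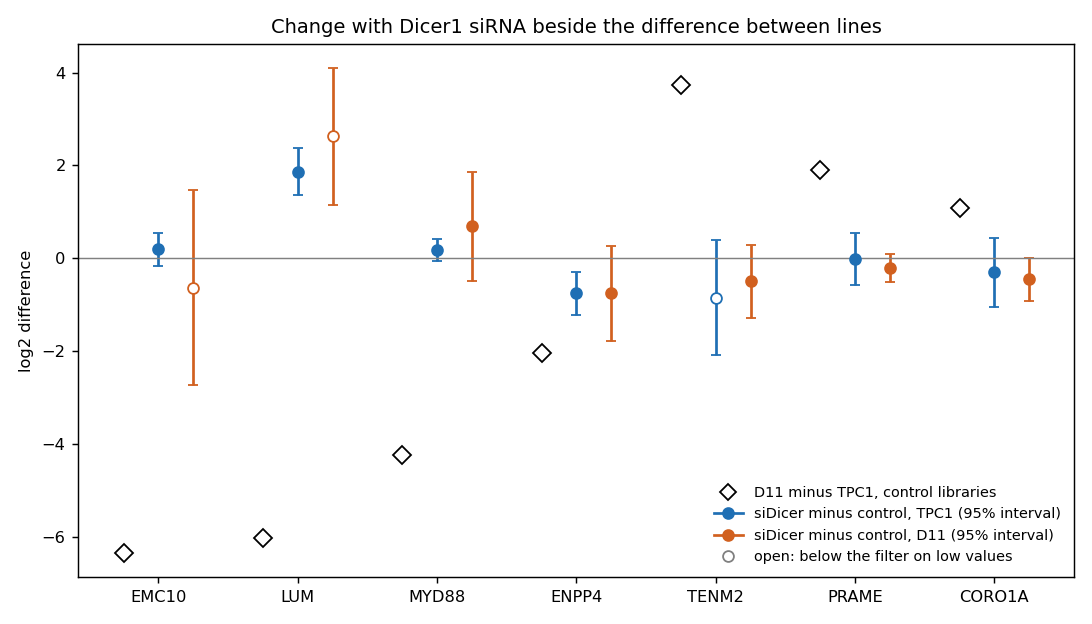
The log2 change with Dicer1 siRNA in TPC1 and in D11 (circles with 95% intervals from limma, open where the gene lay below the filter on low values) beside the log2 difference of D11 from TPC1 in control libraries (open diamonds). The change in TPC1 lies near 0 for EMC10, MYD88, PRAME and CORO1A, is 1.86 for LUM against a line difference of -6.02, and is -0.75 for ENPP4 against -2.04.

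The negative control siRNA called none of the genes against NT, in TPC1 (6 tested, 0.111% of all genes called) or in D11 (5 tested, 0.350%). At an unadjusted p under 0.05 limma gave 2 of the 5 in D11, where 13.6% of all tested genes were under it, and 0 of the 6 in TPC1, where 11.1% were. TENM2 was 0.97 higher on the log2 scale in D11 NC than in D11 NT libraries (limma adjusted p = 0.198), and CORO1A 0.60 lower (limma adjusted p = 0.221). DICER1 itself was higher in NC than in NT, by 0.58 in TPC1 (limma adjusted p = 0.133) and by 0.71 in D11 (limma adjusted p = 0.153).

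The genomic surroundings of EMC10 and MYD88 held a second gene that was low in D11. AC020909.3 (ENSG00000268854, chr19:50480119-50483351) is a long noncoding RNA annotated within EMC10 on the opposite strand. Its TPC1 values were 70, 97 and 93 (NT), 107, 115 and 114 (NC) and 96, 82 and 134 (siDicer), and its D11 values were 2, 0 and 0, then 3, 0 and 2, then 2, 0 and 0. In siDicer libraries D11 held 1 read of AC020909.3 and TPC1 322, a ratio of 0.414% with an exact 95% interval of 0.0105% to 2.32%, and the limma adjusted p was 0.00376. AC020909.3 passed the filter on low values only through the TPC1 siDicer libraries. It was not tested without any 1 of these, and its call held without any 1 D11 library. The library kit marks strand, but whether reads were counted by strand is not given. It is therefore not known whether reads of AC020909.3 and EMC10 were kept apart. GARIN5A, which overlaps the start of EMC10 on the other strand, read 2 to 8 in TPC1 and 0 to 2 in D11.

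VILL, a villin-like gene 131 kb from MYD88 on the side of lower coordinates, read 68, 82 and 79 (NT), 43, 68 and 52 (NC) and 58, 55 and 63 (siDicer). In D11 it read 7, 0 and 0 (NT), 2, 4 and 2 (NC) and 3, 2 and 3 (siDicer). The VILL difference in siDicer libraries was -4.04 on the log2 scale (SE 0.28, limma adjusted p = 0.00266). VILL passed the filter on low values only through the TPC1 siDicer libraries. It was not tested without any 1 of these, and its call held without any 1 D11 library. The genes closest to MYD88 did not share it: ACAA1, 1.31 kb away, differed by -0.12 in siDicer libraries and OXSR1, 22.1 kb away, by -0.09.

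Among the 5 nearest tested genes on each side of the 7 genes, 70 in all, 3 were called between lines in control libraries, AC020909.3, VILL and ADGRF1 on the ENPP4 side of higher coordinates, against 1.02% of all tested genes. In siDicer libraries 2 of 62 were called, AC020909.3 and VILL, against 0.287%. Both passed the filter on low values only through their high TPC1 values. The 70 neighbours had a median control difference of -0.02 on the log2 scale. No neighbour of LUM, TENM2, PRAME or CORO1A was called in either. Of the nearest tested protein-coding genes without overlap, 1 on each side and 14 in all, ADGRF1, 851 kb from ENPP4, was the one called in control libraries (-0.80), and none was called in siDicer libraries (-0.79 for ADGRF1). The siDicer difference was 0.06 for WWC1, 27.5 kb from TENM2, 0.46 for ZNF280A, 27.4 kb from PRAME, and -0.03 for JOSD2, 15.1 kb from EMC10. BOLA2B, 3.86 kb from CORO1A, differed by 0.24 in control libraries and lay below the filter in siDicer libraries, and MAPK3, 59.3 kb away on the other side, differed by -0.25 in siDicer libraries. CORO1A-AS1, antisense to CORO1A, read 2 to 14 in TPC1 and 8 to 20 in D11, and the annotated genes within TENM2 that the table holds read at most 6 in any library.

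EMC1, the large lumenal subunit of the complex that EMC10 belongs to, was also lower in D11. It read 2635, 2068 and 2423 (NT), 3054, 2628 and 3190 (NC) and 2429, 2126 and 2422 (siDicer). In D11 it read 1056, 1091 and 1022 (NT), 1470, 1220 and 1300 (NC) and 1104, 1059 and 968 (siDicer). Every D11 library was under every TPC1 library, and the EMC1 difference in siDicer libraries was -1.16 on the log2 scale (SE 0.09, limma adjusted p = 0.00392). That call was lost without TPC1 siDicer replicate 3 (limma adjusted p = 0.0726) and held without each of the other 5 libraries. EMC1 was the only one called of the other 9 genes listed for this complex, whose median difference in siDicer libraries was -0.03, beside -0.01 over all tested genes. Of all tested genes 0.287% were called there.

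None of the listed partners of the remaining genes passed between lines in siDicer libraries. There, limma called 0 of 32 tested genes of MyD88 signalling, 0 of 4 small leucine-rich proteoglycans, 0 of 7 teneurins and partners, 0 of 6 cancer-testis antigens, 0 of 14 PRAME-associated genes, 0 of 25 coronin and Arp2/3 genes and 0 of 2 ENPP family genes. Over all tested genes 0.287% were called, and at that share lists of this size would hold few calls or none. The list medians, in the same order, were -0.10, -0.22, -0.19, -0.06, -0.03, -0.04 and 0.19 on the log2 scale. In control libraries 2 genes of these lists were called lower in D11, where 0.872% of all tested genes were, and they are named after their values were seen. ADGRL2, a latrophilin and thus of the family that binds teneurins, had means of 290 ± 33.5 in TPC1 and 154 ± 37.6 in D11 control libraries (SD, n = 6 each), and SARM1, a regulator of Toll-like receptor adaptors, 190 ± 42.8 and 108 ± 25.9. Neither passed in siDicer libraries (limma adjusted p = 0.159 for ADGRL2 and 0.391 for SARM1). Decorin, DCN, the proteoglycan related to lumican, was at 0 in every library.

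With siDicer, 5 of 33 tested genes of MyD88 signalling were called in TPC1, against 7.38% of all tested genes, and 6 of 32 in D11, against 12%, and the list itself was not tested. The kinase gene CHUK fell, with log2 changes of -1.45 in TPC1 and -1.40 in D11 (limma adjusted p = 0.000337 and 3.41e-05), while IRAK2, a kinase that MyD88 recruits, rose by 1.05 and 1.12 (limma adjusted p = 0.0102 and 0.00254). TENM4, a teneurin like TENM2, rose by 0.59 and 0.78 (limma adjusted p = 0.00284 and 0.0178). These genes are named after their values were seen.

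Of the marker lists of other cell types, 1 gene was called between lines in siDicer libraries, where 0.287% of all tested genes were. Of 17 leukocyte markers, which bear on CORO1A and MYD88, 15 had a mean under 10 and 4 were at 0 in every library, PTPRC (the pan-leukocyte CD45 gene) read 0 to 4, and LAPTM5 made up most of the list. The summed leukocyte list ran from 232 to 544 in TPC1 control and 211 to 443 in D11 control libraries. In siDicer libraries this sum was lower in D11 (358 to 471) than in TPC1 (502 to 604), without overlap. Among all tested genes 9.12% likewise did not overlap between lines there, and 0 of 2 tested leukocyte markers were called. Of the fibroblast markers, which bear on LUM, COL1A2 read 0 to 2 and the summed list 944 to 1645 in TPC1 control and 895 to 1289 in D11 control libraries, and 939 to 1374 in TPC1 and 851 to 995 in D11 siDicer libraries. Of the neuronal markers, which bear on TENM2, RBFOX3 (a neuronal splicing factor) was higher in D11. It read 13, 13 and 9 in TPC1 siDicer and 53, 46 and 39 in D11 siDicer libraries, a log2 difference of 1.90 (SE 0.26, limma adjusted p = 0.0391), and it lost its call without any 1 of these libraries except TPC1 siDicer replicate 2. SNAP25, which encodes a synaptic SNARE protein, had means of 53.8 in TPC1 and 26.5 in D11 control libraries and of 183 and 84.7 in siDicer libraries, and was not called in either (siDicer difference -0.98, SE 0.33, limma adjusted p = 0.871). The summed neuronal list overlapped between lines, at 1093 to 1948 in TPC1 and 1457 to 2345 in D11 control libraries, and at 1702 to 2029 in TPC1 and 1408 to 1897 in D11 siDicer libraries. Whether other cell states had a part in the differences was not tested.

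Likeness to other genes across the 18 libraries is given as a description, because the libraries share 2 lines and the genes were chosen for the difference between them. The closest gene to EMC10 by Pearson's r on the log2 scale, among 12508 genes with a mean of at least 100, was MYD88 (r = 0.97), then the zinc finger gene ZNF431 (0.94). MYD88 was followed by EMC10 and AL035413.1 (0.94), and ENPP4 by ZNF431 (0.91) and EMC10 (0.91). TENM2 was followed by PRAME (0.90) and FBXW2 (0.87), and PRAME by FBXW2 (0.90) and MRFAP1L1 (0.86). LUM, which also rose with siDicer, was followed by BEX4 (0.97) and the collagen gene COL5A2 (0.95), and CORO1A by DDB2 (0.94) and NAB2 (0.88). BEX4 read 764 to 1056 in TPC1 and 383 to 661 in D11, and COL5A2 553 to 1150 and 130 to 245.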

How the data were processed

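Messenger RNA was sequenced from 18 libraries. Per the methods of the study and the labels, the authors aligned paired-end reads of a stranded library to GRCh38 with STAR 2.5.3a and assigned them to genes of Ensembl release 90 with HTSeq 0.9.1. Whether strand was used is not given, so reads of overlapping and antisense genes may be misassigned or left out. The authors deposited a normalised score per gene, its reads scaled to 20 M and rounded up to a whole number, and not raw counts, so tests for raw counts were not used. Depth, 11.3 to 23.2 M reads, was recovered from the steps between values.

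Values were taken as log2(value + 1), a scale on which fold changes of low genes are understated. Genes that reached 10 in 3 or more libraries of a comparison were tested with limma 3.58.1 (lmFit, eBayes with trend) in R 4.3.3, with Benjamini-Hochberg adjustment over all of them. Calls required an adjusted p under 0.05 together with a 1.5-fold or larger change.

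The 7 genes, the gene lists and the tests were chosen with earlier results of these data known. Named genes were the 7, DICER1, up to 3 genes of each list called in D11 against TPC1 in siDicer libraries, the nearest protein-coding genes and any called among the 5 nearest on each side, and the 2 genes most correlated with each. Positions came from GENCODE release 44 on GRCh38, which held 57532 of the 58302 identifiers, and promoters from RefSeq. Intervals from reads cover counting error only.

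Replicate numbers were checked by correlating deviations from group means. Libraries of the same number exceeded 0.1 in 9 of 9 TPC1 pairs (0.11 to 0.68), 8 of 9 D11 pairs (0.08 to 0.72) and 3 of 3 pairs of siDicer libraries of both lines (0.32 to 0.56). The numbers were taken to pair the TPC1 libraries and the siDicer libraries of both lines, from the data and not from the labels. Alternatives changed the scaling (TMM, RLE), the filter (none, or 100 as the lowest mean), the pseudocount (0.1, 10), the fold change limit (none), the groups (from the titles), the control (NT or NC alone) and the model (replicate number as a block, all 18 libraries together, voom on recovered reads), or left out 1 library each time.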

Additional observations from a re-analysis of the deposited data

How the results depend on the processing

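Over 1059 values computed under alternatives, no called difference of the 7 genes changed sign. The count of calls in D11 against TPC1 in siDicer libraries, 51, was 7 with a mean of at least 100, 28 with a pseudocount of 0.1, 123 with a replicate block, 97 in a fit of all 18 libraries, 30 with groups from the titles, 27 without all D11 libraries of replicate 1 (added after the data were seen) and 2 to 47 without 1 library. For siDicer against control in TPC1, 1363 calls became 2552 with no fold change minimum and 0 with groups from the titles, and 427 to 2094 without 1 library. The TPC1 count was 446 without siDicer replicate 1, 2094 without replicate 2 and 427 without replicate 3. In D11, 2212 became 4086 with no fold change minimum and 0 with groups from the titles, and 1374 to 2464 without 1 library, the lowest without siDicer replicate 3. For NC against NT in TPC1, 20 became 13 with no filter, 565 with a replicate block, 146 in a fit of all 18 libraries, and 0 to 55 without 1 library. In D11, 63 became 8 with no filter, 315 with a replicate block, 200 in a fit of all 18 libraries, and 0 to 101 without 1 library. D11 against TPC1 in control libraries gave 191 calls, 45 with a mean of at least 100, 385 with a replicate block, 47 in NT libraries alone, 41 in NC libraries alone and 153 to 194 without 1 library. The interaction gave 0 calls in all 30 alternatives run.

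With the replicate block, TENM2 passed in NC against NT in D11 (limma adjusted p = 0.0287), where 8 of 9 pairs of libraries correlated above 0.1. Besides ENPP4 in siDicer libraries and TENM2 there, the block changed no call of the 7 genes. In D11 against TPC1 in siDicer libraries, PRAME lost its call without all D11 libraries of replicate 1 (1.77, limma adjusted p = 0.0799), with EMC10, LUM and MYD88 still called. Of these libraries only the siDicer library enters that comparison. With a mean of at least 100, 4 of the 7 genes were tested and MYD88 was called, and with groups from the titles EMC10, MYD88 and PRAME were. A cause of these changes was not tested, apart from the smaller sets of genes and libraries that the alternatives themselves hold. At this depth 1 read is worth up to 1.77 units, and EMC10 and LUM within D11 and TENM2 within TPC1 stayed under the filter of 10 units in 3 libraries.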
